A study of Homo sapiens with 6 samples.

Results

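The nuclear genes for the respiratory chain and the ATP synthase of mitochondria were examined in HaCaT cells, an established line of human epidermal keratinocytes. Genes were taken by symbol: those beginning with NDUFA, NDUFB, NDUFC, NDUFS, NDUFV, NDUFAF, UQCR, COX4 to COX8 or ATP5, together with SDHA to SDHD, CYC1, CYCS and DMAC2L. This gave 93 of the 19775 genes that the array annotation names singly: 33 complex I subunits, 8 complex I assembly factors, 3 complex II subunits, 7 complex III subunits, cytochrome c, 17 complex IV subunits, 19 genes of the ATP synthase and 5 pseudogenes or non-coding transcripts. Several subunits, among them SDHB and UQCRFS1, have no probe set that names them alone here and were not analysed here. The 2 groups were 3 HaCaT cultures kept for 12 h in an incubator under a negative pressure gradient of 125 mmHg and 3 HaCaT cultures kept for the same time at ambient pressure. All cultures were of the same line and grown in the same medium with serum. RNA of each culture was hybridised to 1 Affymetrix array. Every level given here is the deposited log2 value of 1 probe set, a set of short probes to which the annotation gives 1 gene. The titles call the cultures biological replicates.

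The respiratory chain passes electrons from NADH through complex I, or from succinate through complex II, to ubiquinone, and on through complex III, cytochrome c and complex IV to oxygen. Complexes I, III and IV pump protons out of the mitochondrial matrix, and the ATP synthase lets them flow back through its membrane part to drive ATP synthesis in its F1 head. Most subunits are encoded in the nucleus, where the transcription factors NRF1, GABPA and YY1 bind many of their promoters, and a few core subunits are encoded in mitochondrial DNA.

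After 12 h of negative pressure, transcripts of the respiratory chain stood almost where they stood at ambient pressure. DMAC2L, the coupling factor B of the ATP synthase, fell 2.23-fold, and it was the only 1 of the 93 genes that passed an adjusted p of 0.05 in limma. None was higher, and 92 did not pass. Over all genes, 0.314% were lower and 0.607% higher by the same test, so that the members' counts, 1 lower and 0 higher, lie near the background. The median difference, negative minus ambient pressure, was 0.01 on the log2 scale over the 93 genes and 0.01 over all genes, with 49 members above 0 and 44 below. An unadjusted p under 0.05 was reached by 2 of 93 members (2.15%), DMAC2L and NDUFS1, against 2304 of 19775 genes (11.7%). The median absolute difference was 0.08 over the members and 0.12 over all genes.

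The intervals show how much change these arrays could have missed where the signal was not weak. For 89 of 93 members, the 95% interval of the difference lay within 1.5-fold in both directions, each interval taken by itself. The same held for 15239 of 19775 genes. For 92 members the interval lay within 2-fold, as for 19277 of all genes, and the 1 outside was DMAC2L. Only 82 of the 93 members had a mean above 4.997, the median gene mean over the 6 arrays. In weaker probe sets processing can compress differences, so a narrow interval there does not bound the change. The median distance from the estimate to the end of the interval was 0.28 for members and 0.31 for all genes on the log2 scale. The mean deviation of the 93 genes from their own means over the 6 arrays was between -0.02 and 0.03 on the ambient arrays and between -0.02 and 0.01 on the negative pressure arrays. The groups overlapped on this measure.

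**Figure D1:**
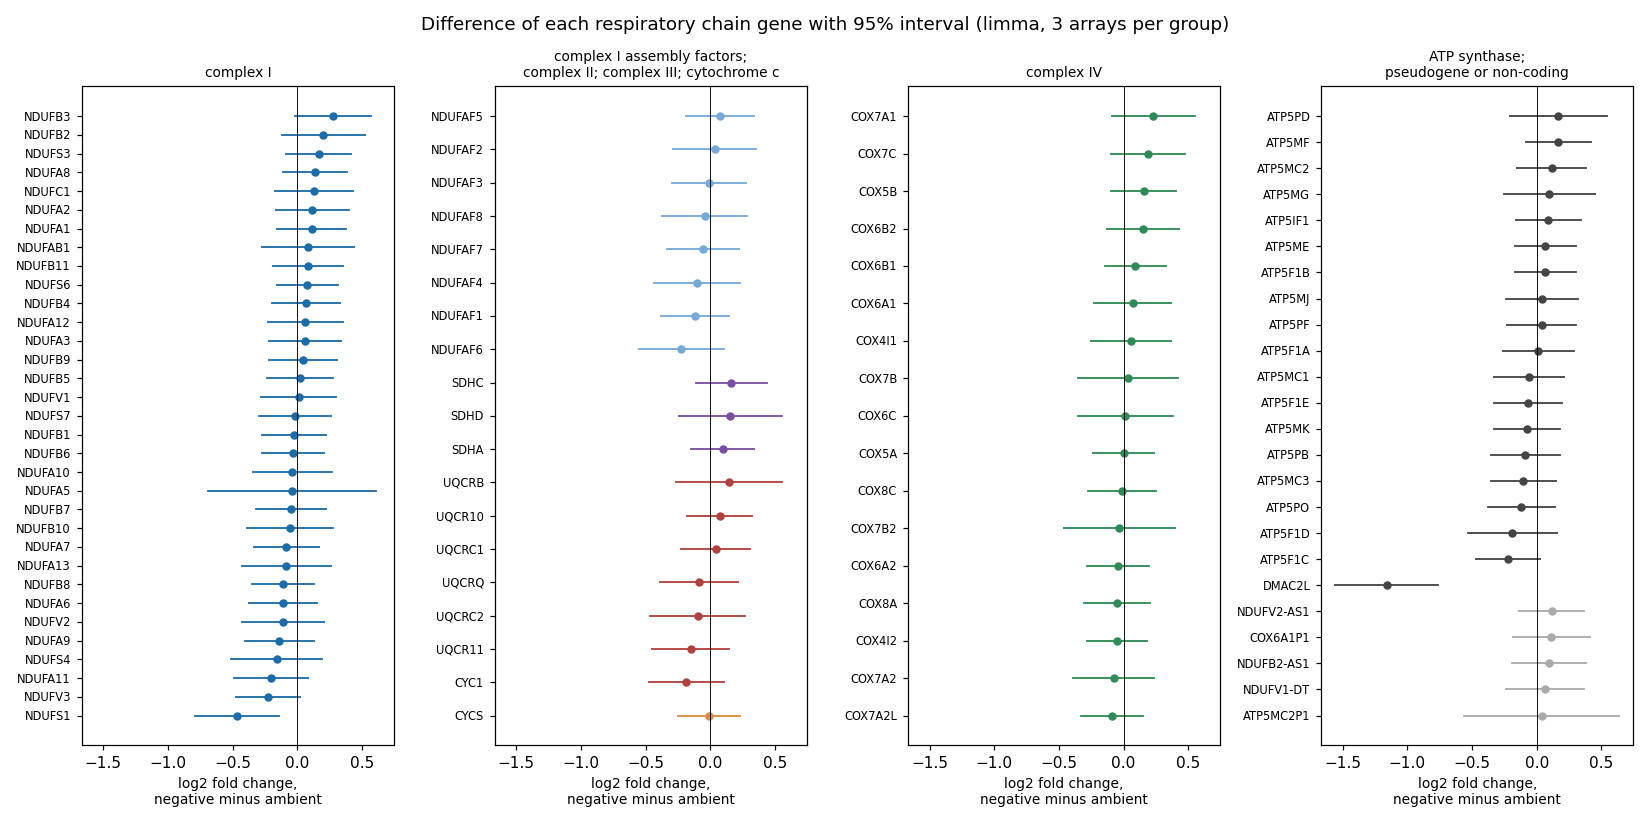
Difference of each of the 93 genes on the log2 scale, negative minus ambient pressure, with its 95% interval from limma (3 arrays per group), sorted within complexes. DMAC2L at -1.16 stands apart from the other 92 genes, which lie between -0.47 and 0.28.

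The arrays numbered 3 stood apart from the other 4 in many of these genes, whatever the pressure. The offset of the replicate 3 arrays from replicates 1 and 2 was larger than the pressure difference in 61 of 93 members (65.6%), against 60.0% of all genes. In 39 members (41.9%) both replicate 3 arrays lay wholly above or below the other 4, against 32.4% of all genes. The cause of the offset is not given in the sources used here. No label says that cultures of the same number were paired. With the replicate number as a block, DMAC2L was still the 1 member that was lower, and 0 were higher. Over all genes 2.06% were lower and 2.87% higher in that fit.

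Complex I takes electrons from NADH, and its 33 subunits measured here comprise 5 core subunits, which carry the flavin and iron-sulfur clusters or bind beside them, and 28 supernumerary subunits around them. None of the 33 passed, the median difference was -0.02, and the range ran from -0.47 to 0.28. NDUFS1, the large iron-sulfur subunit, had the lowest value of the complex. Its level was 8.94, 9.12 and 9.01 at ambient pressure, against 8.80, 8.56 and 8.31 under negative pressure. All 3 negative pressure arrays lay below all 3 ambient arrays, and the negative pressure replicate 3 was the lowest. The difference of -0.47 ± 0.14 (SE; 95% interval -0.79 to -0.14) did not pass (limma adjusted p = 0.220; with the replicate block 0.0613), and 4.92% of all genes had a difference of at least that size.

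The other core subunits bracketed 0. NDUFS3, a subunit of the arm that hands electrons to ubiquinone, read 9.30, 9.44 and 9.53 against 9.58, 9.56 and 9.62, a small difference of 0.16 without overlap (adjusted p = 0.682). NDUFV1, which binds NADH and the flavin, stood at 0.01, NDUFS7 at -0.02 and NDUFV2 at -0.11. Of the 28 supernumerary subunits, 14 were above 0 and 14 below. The highest was NDUFB3, a small membrane subunit, with 8.95, 9.31 and 9.20 at ambient pressure and 9.34, 9.55 and 9.41 after negative pressure. Its groups were separated by less than the spread within the ambient group, and the difference of 0.28 ± 0.13 (SE) did not pass (adjusted p = 0.466). NDUFAB1, the mitochondrial acyl carrier protein, differed by 0.08, with replicate 3 the highest array of either group. NDUFV3 stood lowest among the supernumerary subunits, at -0.22 (adjusted p = 0.491). The 8 assembly factors, which build complex I and do not stay in it, ran from -0.22 for NDUFAF6 to 0.07 for NDUFAF5, and none passed. NDUFAF8, which stabilises NDUFAF5, stood at -0.05.

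Complex II joins the tricarboxylic acid cycle to the chain by oxidising succinate, and it is the 1 complex with no subunit from mitochondrial DNA. SDHA, its flavoprotein, read 9.43, 9.36 and 9.48 at ambient pressure, against 9.59, 9.48 and 9.49 under negative pressure. The groups nearly touched without overlapping, and the difference of 0.09 ± 0.11 (SE) did not pass (adjusted p = 0.850). SDHC, 1 of the membrane anchors, stood at 0.16 (0.725) and SDHD, the other anchor, at 0.15 (0.852), both with overlapping groups. All 3 were above 0 under each of the 18 settings compared, with a median between 0.11 and 0.17, and none passed. SDHA and SDHC are read by probe sets of the kind (ending in _x_at) in which some probes may also match other transcripts, so that signal from near copies cannot be told apart from the genes' own. The same limit holds for the sets used for COX4I1, COX7C, ATP5F1C, ATP5ME and ATP5MG.

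Complex III hands electrons from ubiquinol to cytochrome c. Its 7 measured subunits had a median of -0.09, 3 above 0 and 4 below, and none passed. The sign of this median was not stable: it was 0.04 both with the mean of all probe sets and when arrays were weighted, and 0.02 when both replicate 3 arrays were left out. CYC1, the haem protein cytochrome c1, was the lowest, with 10.55, 10.53 and 10.88 at ambient pressure against 10.46, 10.42 and 10.52 under negative pressure. The groups did not overlap, but ambient replicate 3 alone lay well above the rest, and the difference of -0.19 ± 0.13 (SE) did not pass (adjusted p = 0.682). UQCRB, a ubiquinone-binding subunit, was the highest at 0.14, and UQCR10, a small subunit, stood at 0.07. CYCS, the cytochrome c that shuttles electrons to complex IV and takes part in apoptosis when released, read 12.40, 12.37 and 12.32 against 12.35, 12.41 and 12.29. The difference of -0.01 ± 0.11 (SE; 95% interval -0.25 to 0.23) was smaller than the spread within either group.

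Complex IV reduces oxygen to water. Its 17 nuclear genes here divide into 11 subunits of general use and 6 isoforms that are known from particular tissues, and none of the 17 passed. The median was 0.01 and the range -0.09 to 0.23. Subunit 4, which takes part in the response of the enzyme to ATP, comes in a general form and a form known from lung. COX4I1, the general form, read 11.38, 11.41 and 11.60 at ambient pressure, against 11.39, 11.40 and 11.76 under negative pressure, with replicate 3 highest in both groups. COX4I2, the lung form, which low oxygen induces in some cells, read 4.94, 4.95 and 4.92 against 4.86, 4.88 and 4.91. Its groups did not overlap, yet the difference was only -0.05 ± 0.10 (SE; 95% interval -0.29 to 0.18; adjusted p = 0.920).

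The remaining isoform pairs of complex IV did not pass either. COX6A1, the general form of a regulatory subunit, stood at 0.07, and COX6A2, its form in heart and skeletal muscle, at -0.04. COX6B1, a subunit at the face that binds cytochrome c, stood at 0.09 with no overlap (9.30, 9.31 and 9.36 against 9.46, 9.38 and 9.40; adjusted p = 0.852). COX6B2, its testis form, stood at 0.15. COX7A1, the heart and muscle form of another small subunit, had the highest difference of the complex, 0.23 ± 0.14 (SE; adjusted p = 0.627), against -0.08 for COX7A2, the general form. COX7A2L, which helps to assemble supercomplexes of the chain, was the lowest at -0.09. COX8A, the general form of a very small subunit, stood at -0.05 and COX8C, its testis form, at -0.01. All 6 tissue isoforms had means below 4.997, the median gene mean over the 6 arrays, so that their small differences rest on weak signal, while all 11 general subunits lay above it.

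The ATP synthase was the 1 complex with a member past the threshold, DMAC2L. That gene is a peripheral factor, taken in by name and not by a shared beginning of the symbol. Assembly factors of complexes III and IV were counted in separate lists, where TTC19 and COX11 passed. None of the genes of the F1 head or of the stalk and membrane part of the ATP synthase passed. The 5 genes of the F1 head, which forms ATP, ran from -0.22 to 0.07. ATP5F1A, the alpha subunit, read 12.45, 12.48 and 12.28 at ambient pressure, against 12.44, 12.53 and 12.27 under negative pressure, a difference of 0.01 ± 0.12 (SE). ATP5F1B, the catalytic beta subunit, stood at 0.07. ATP5F1C, the gamma subunit that forms the rotating shaft, read 10.79, 10.74 and 10.90 against 10.59, 10.54 and 10.63. Its groups did not overlap, and its difference of -0.22 ± 0.11 (SE) did not pass (adjusted p = 0.487). The 12 genes of the stalk and membrane part lay between -0.12 and 0.17 around a median of 0.04. ATP5PD, a subunit of the peripheral stalk, was the highest of them. ATP5MF, also at 0.17, rests on weak signal, with a mean of 3.96, while the other 11 lay above the median gene mean of 4.997.

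DMAC2L, known also as ATP5S, encodes factor B, a small peripheral protein that couples the membrane part to ATP synthesis. Its level was 6.69, 6.53 and 6.90 at ambient pressure, against 5.30, 5.43 and 5.91 under negative pressure. Every negative pressure array lay below every ambient array, with a gap wider than the range of the ambient group, and replicate 3 was the highest array of both groups. The mean went from 6.71 ± 0.19 to 5.55 ± 0.33 (SD, n = 3 each), a difference of -1.16 ± 0.18 (SE; 95% interval -1.56 to -0.76; limma adjusted p = 0.0248). With the replicate block the adjusted p was 0.000472, and without both replicate 3 arrays the difference was -1.25 (adjusted p = 0.0101). Leaving out 1 array kept the difference between -1.34 and -1.03, but DMAC2L passed in only 1 of these 6 fits, the one without negative pressure replicate 3 (adjusted p = 0.0148). The adjusted p was 0.119 without ambient replicate 1, 0.110 without ambient replicate 2 and 0.0644 without ambient replicate 3. Among the negative pressure arrays, leaving out replicate 1 gave 0.101 and replicate 2 gave 0.113.

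**Figure D2:**
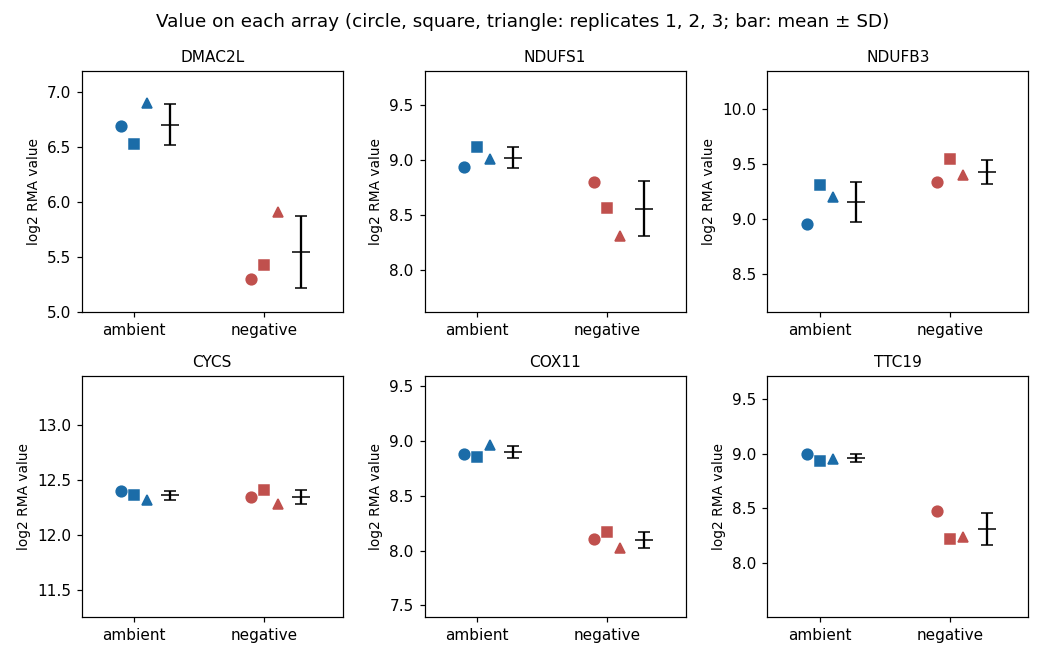
Deposited log2 values on each of the 6 arrays for 6 genes, with the replicate number as the symbol and the mean ± SD of each group (n = 3) beside it. The groups are apart in DMAC2L, NDUFS1, COX11 and TTC19, nearly touch in NDUFB3 and overlap in CYCS.

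Several probe sets read the same gene, and they did not always move together. The 93 genes have 185 probe sets that name 1 gene, 52 genes with more than 1 and 41 with 1. With every probe set of the array tested by limma, 2 of the 185 were lower, both of DMAC2L, and 1 was higher, of ATP5IF1. Over all 54675 probe sets, 0.203% were lower and 0.276% higher.

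DMAC2L is read by 8 probe sets. In 6 of them the negative pressure arrays lay wholly below the ambient arrays. Beside the set used above, probe set 237400_at passed, with 6.32, 6.35 and 6.11 at ambient pressure, against 5.29, 5.003 and 4.93 under negative pressure, a difference of -1.19 ± 0.14 (SE; adjusted p over all probe sets 0.0210). The set 239859_x_at stood at -1.07 (adjusted p = 0.0753), 1554177_a_at at -0.76 (0.0649), 206992_s_at at -0.48 (0.220) and 238799_at at -0.44 (0.335). The other 2, 206993_at and 244670_at, showed 0.02 and 0.07 with overlapping groups. With the mean of all 8, DMAC2L still passed at -0.62 (adjusted p = 0.0260).

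ATP5IF1 encodes the inhibitor that keeps the ATP synthase from splitting ATP when the proton gradient collapses. Its most intense probe set, 223338_s_at, read 8.39, 8.40 and 8.29 at ambient pressure, against 8.38, 8.41 and 8.56 under negative pressure, a difference of 0.09 ± 0.11 (SE; limma adjusted p = 0.864). A further set, 218671_s_at, stood at 0.01. The third, 223339_at, read 5.63, 5.53 and 5.38 against 6.61, 6.71 and 6.65 and rose by 1.14 ± 0.12 (SE; 95% interval 0.88 to 1.40; adjusted p over all probe sets 0.0142). The groups of this set were far apart while those of the first 2 overlapped, and which part of the transcript each set reads was not tested. ATP5IF1 was therefore higher in the settings that chose this set, by the largest variance (adjusted p = 0.0168) or by a plain _at ending (0.00903).

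A similar split was seen without a call in other members. For NDUFS1, 229647_at read 5.27, 5.18 and 4.99 against 4.72, 4.69 and 4.73, a difference of -0.43 (limma adjusted p = 0.196), close to that of its main set. Its 3 other sets stood between -0.06 and 0.07, but with low means of 1.89, 3.39 and 3.57. The mean of its 5 sets gave -0.17. A dimmer set of CYCS, 229415_at, stood at -0.70 (adjusted p = 0.186), 1 of COX5A, 229426_at, at -0.45 (0.176) and 1 of UQCR11, 223613_at, at 0.48 (0.178). These 3 are named because their values were seen to differ from those of the main sets, at -0.01, 0.00 and -0.15.

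**Figure D3:**
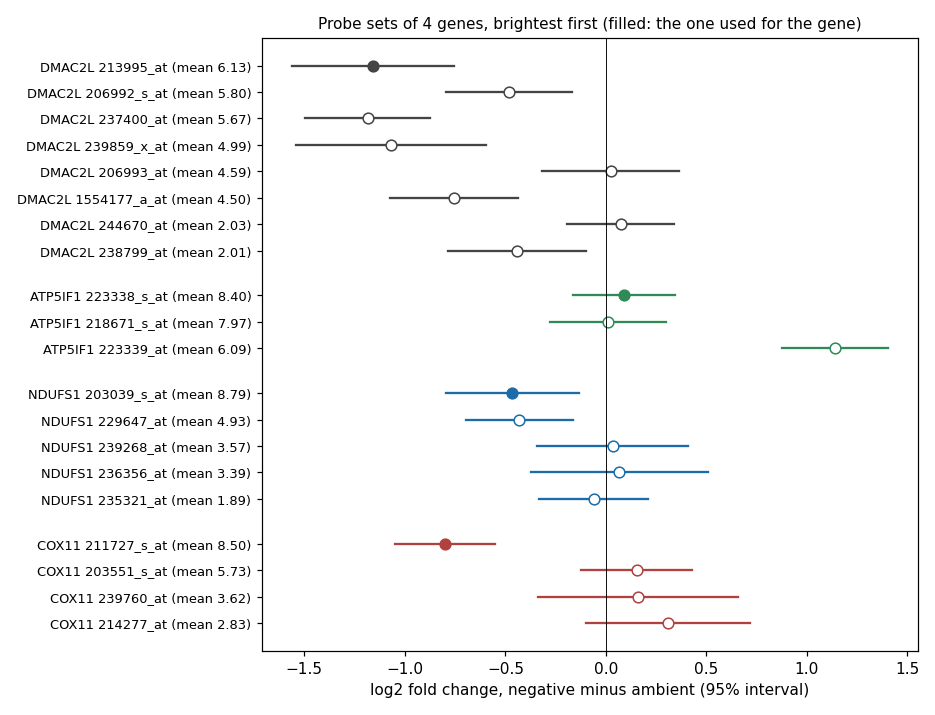
Difference on the log2 scale, negative minus ambient pressure, with its 95% interval for every probe set of DMAC2L, ATP5IF1, NDUFS1 and COX11, ordered by mean signal, the set used for the gene filled. In DMAC2L 6 of 8 sets lie below 0 with no overlap of the groups, in ATP5IF1 only the least intense of 3 is raised, and in COX11 only the most intense of 4 is lowered.

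The promoters of these genes share sequence motifs that the choice by symbol did not use. RefSeq promoter windows of 300 bases (250 before to 50 after the start, GRCh38.p14) were matched by gene ID for 77 of the 93 members. The 95 windows in all were searched on both strands for 3 motifs. The motif GCATGCGC of NRF1, which reads GCGCATGC on the other strand, was found in 17 of 95 windows (17.9%), against 3.05% of 35116 windows of all genes. The motif CCGGAAG of the ETS family, to which GABPA belongs, was found in 23 (24.2%), against 10.3%, and AAGATGGCG of YY1 in 11 (11.6%), against 1.75%. At least 1 of the 3 was found in 39 (41.1%), against 14%, and at least 2 in 11 (11.6%), against 1.03%. A match is a description of the letters and not of binding.

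Promoters are printed for 4 members from 250 bases before to 30 bases after the start, to show how the motifs are set out in NDUFS1, the lowest of complex I, and in a member each of complex II, complex IV and the ATP synthase that hold 2 or more of them. Capitals mark the motifs. In NDUFS1 (chr2:206159415-206159694, minus strand) an ETS motif begins 157 bases before the start, while another RefSeq window of the gene holds none of the 3 motifs. In SDHD (chr11:112086623-112086902, plus strand) 2 overlapping NRF1 matches begin 110 and 108 bases before it and an ETS motif 77 bases. In COX6A1 (chr12:120437863-120438142, plus strand) NRF1 matches begin 218 and 174 bases before it and an ETS motif 16 bases. In ATP5PF (chr21:25735025-25735304, minus strand), the gene of coupling factor 6, an NRF1 motif begins 120 bases before it, a YY1 motif 57 bases and an ETS motif 30 bases, while another window of the gene holds ETS and YY1 motifs and no NRF1 motif.
NDUFS1: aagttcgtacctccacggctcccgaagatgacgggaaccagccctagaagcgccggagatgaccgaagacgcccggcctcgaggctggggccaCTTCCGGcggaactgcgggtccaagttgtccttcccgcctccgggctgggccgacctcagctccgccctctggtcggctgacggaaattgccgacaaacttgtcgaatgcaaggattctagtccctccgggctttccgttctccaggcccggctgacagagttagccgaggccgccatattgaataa
SDHD: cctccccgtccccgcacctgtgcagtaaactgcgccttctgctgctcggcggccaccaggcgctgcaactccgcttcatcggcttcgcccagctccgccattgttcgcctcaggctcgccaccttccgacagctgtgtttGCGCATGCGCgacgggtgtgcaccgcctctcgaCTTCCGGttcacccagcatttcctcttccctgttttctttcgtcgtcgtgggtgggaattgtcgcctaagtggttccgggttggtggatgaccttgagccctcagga
COX6A1: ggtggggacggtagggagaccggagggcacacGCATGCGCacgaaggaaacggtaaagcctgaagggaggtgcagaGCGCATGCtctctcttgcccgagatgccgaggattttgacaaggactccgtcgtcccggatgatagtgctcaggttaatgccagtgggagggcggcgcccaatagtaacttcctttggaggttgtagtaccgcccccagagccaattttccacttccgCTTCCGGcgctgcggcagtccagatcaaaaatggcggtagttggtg
ATP5PF: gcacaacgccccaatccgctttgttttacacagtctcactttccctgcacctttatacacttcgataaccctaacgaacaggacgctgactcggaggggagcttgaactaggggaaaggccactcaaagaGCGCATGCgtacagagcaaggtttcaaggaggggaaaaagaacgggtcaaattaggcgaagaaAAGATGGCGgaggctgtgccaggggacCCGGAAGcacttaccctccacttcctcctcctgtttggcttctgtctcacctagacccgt
Of these 4 genes, SDHD stood at 0.15, COX6A1 at 0.07, ATP5PF at 0.04 and NDUFS1 at -0.47, and none passed.

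The medians of members with a motif and of members without it lay between -0.08 and 0.07. The median difference was 0.07 for the 16 genes with an NRF1 motif and -0.01 for the 61 without. It was 0.04 for the 21 genes with an ETS motif and -0.01 for the 56 without, and -0.08 for the 9 with a YY1 motif against 0.02 for the 68 without. These are descriptions with no test. The factors' own transcripts did not pass: NRF1 stood at -0.07 (limma adjusted p = 0.905), GABPA at 0.26 (0.797) and YY1 at 0.19 (0.795).

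In most members the replicate 3 arrays differed from the other 4 by more than the groups differed from each other. NDUFA5, a supernumerary subunit of complex I, read 9.62, 9.44 and 8.96 at ambient pressure, against 9.52, 9.78 and 8.60 under negative pressure. Replicate 3 was the lowest array of both groups, 0.81 below the mean of the other 4, while the pressure difference was -0.04. UQCRB read 10.36, 10.35 and 9.94 against 10.48, 10.59 and 10.00, with an offset of -0.47, and SDHD and COX7B had offsets of -0.44 and -0.43. In the other direction, NDUFAB1 read 10.85, 10.91 and 11.31 against 10.99, 11.01 and 11.32, an offset of 0.38, ATP5PD likewise had 0.38, and ATP5MG, a membrane subunit, had 0.34. The offset therefore did not run 1 way over the chain: its mean over the 93 genes was 0.01. Its median size was 0.13, against 0.08 for the pressure difference. Over all genes the 2 medians were larger, 0.17 and 0.12, so the offset was not particular to the members.

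**Figure D4:**
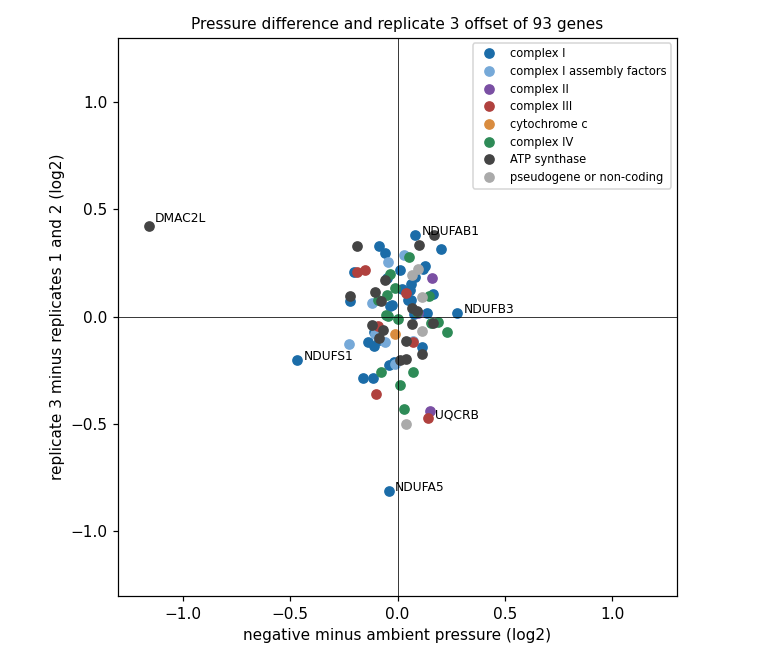
Pressure difference (x axis, negative minus ambient) and offset of the replicate 3 arrays from replicates 1 and 2 (y axis), both on the log2 scale and drawn to the same scale, 1 point for each of the 93 genes, coloured by complex. The cloud is taller than it is wide, with 61 genes farther from 0 on the y axis, and DMAC2L alone lies far out along the x axis.

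Separation of the groups without regard to a test gave no more than the background. In 14 of 93 members (15.1%) the 3 arrays of 1 group lay wholly above those of the other, against 17.3% of all genes. Under negative pressure 6 of these were higher, COX6B1, NDUFA8, NDUFB3, NDUFS3, NDUFS6 and SDHA, and 8 were lower, ATP5F1C, ATP5MC3, COX4I2, CYC1, DMAC2L, NDUFB8, NDUFS1 and NDUFV3. Both directions occurred within complex I (4 higher, 3 lower) and within complex IV (1 and 1). The 3 of the ATP synthase were all lower: ATP5F1C, ATP5MC3, which encodes the c subunit of the rotor ring, and DMAC2L. The 5 pseudogenes and non-coding transcripts that share the symbols, such as the antisense transcript NDUFB2-AS1, ran from 0.04 to 0.12, and none passed.

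Genes that build or supply the chain were counted from fixed lists. Of 26 factors of complex IV assembly 1 was lower and 0 higher, with a median of -0.07, where 0.314% of all genes were lower and 0.607% higher. The groups did not overlap in 10 of the 26 (38.5%), 4 higher and 6 lower, against 17.3% of all genes. COX11, which delivers copper to the COX1 subunit, read 8.88, 8.86 and 8.96 at ambient pressure, against 8.11, 8.16 and 8.02 under negative pressure, with a wide gap and little spread. It fell by 0.80 ± 0.11 (SE; limma adjusted p = 0.0182; with the replicate block 0.00272). Its 3 dimmer probe sets stood at 0.15, 0.31 and 0.16, all with overlapping groups, and the mean of its sets gave -0.04 (adjusted p = 0.949), so that its fall rests on 1 probe set, 211727_s_at. Without 1 array its adjusted p ran from 0.0318 to 0.110.

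Among 13 factors of complex II and III assembly, 1 was lower and 0 higher, beside the same 0.314% and 0.607% of all genes, and the median was -0.03. The groups did not overlap in 4 of the 13 (30.8%), 2 in each direction, against 17.3% of all genes. TTC19, which keeps complex III free of fragments of its Rieske protein, read 8.996, 8.93 and 8.95 against 8.48, 8.22 and 8.24 and fell by 0.65 ± 0.12 (SE; limma adjusted p = 0.0419; with the replicate block 0.00742). Its groups were apart, but the call was lost whenever 1 array was left out (adjusted p from 0.0778 to 0.197) or both replicate 3 arrays were (0.0581). BCS1L, which inserts that Rieske protein, stood at 0.27 (adjusted p = 0.359).

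None passed among 11 other complex I assembly factors (median 0.00), 6 genes of ATP synthase assembly and of phosphate and nucleotide exchange (median 0.15), 17 regulators of respiratory genes (median -0.00) and 12 enzymes of the tricarboxylic acid cycle (median -0.05). The groups did not overlap in 4 (36.4%), 2 (33.3%), 2 (11.8%) and 3 (25%) of these genes, in the same order. They did not overlap in 5 (45.5%) of the 11 low-oxygen genes that follow. The share over all genes was 17.3%, and counts in lists this short are uncertain. PDK1, whose kinase activity shuts down pyruvate dehydrogenase, was the 1 of 11 genes of the respiratory switch to low oxygen that passed. It fell by 1.49 ± 0.23 on the log2 scale (SE; limma adjusted p = 0.0278). The other 10, COX4I2 among them, did not pass. Over all genes, 0.314% were lower and 0.607% higher by this test. Without 1 array the adjusted p of PDK1 ran from 0.0264 to 0.147. The value given for PDK1 is that of its most intense probe set, 226452_at. Its set 206686_at stood at -0.67 (limma adjusted p over all probe sets 0.0516), and the weak set 239798_at, of mean 2.82, at -0.08 (0.929). With the mean of its sets PDK1 fell by less, at -0.74 (adjusted p = 0.0189). COXFA4, known before as NDUFA4 and now counted to complex IV, stood at -0.03, and COXFA4L2, its paralog induced by low oxygen, at 0.22 (adjusted p = 0.482). Mitochondrial DNA encodes complex I subunits of its own, and ND2 stood at -0.41 (adjusted p = 0.746), ND4 at 0.05 and ND6 at -0.34. These 3 were looked up after the annotation was seen, and ND2 had an offset of 0.96 in the replicate 3 arrays.

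**Figure D5:**
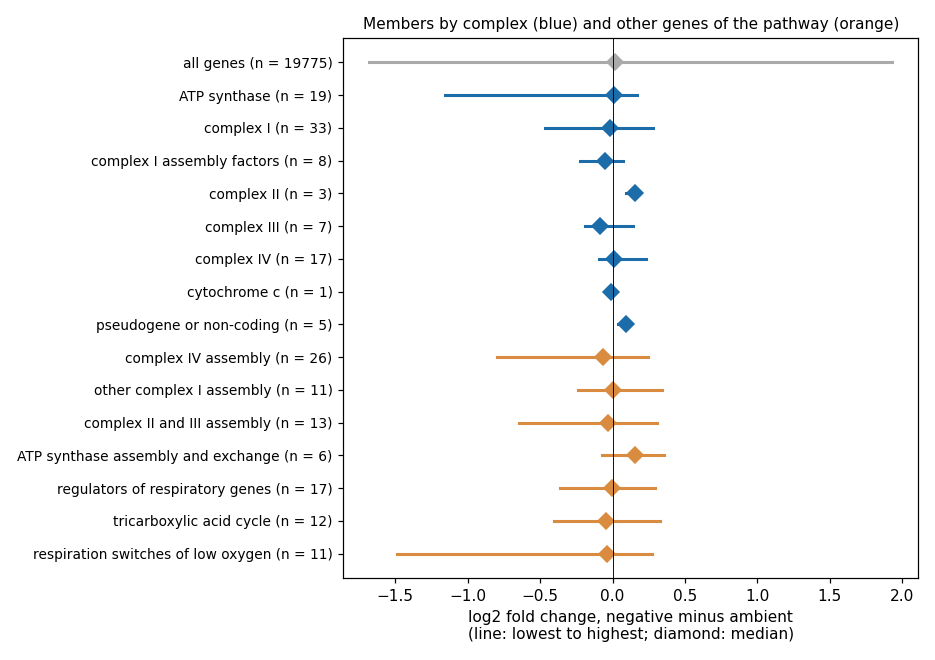
Median (diamond) and lowest to highest difference (line) on the log2 scale, negative minus ambient pressure, for the members by complex, for other genes of the pathway by list and for all 19775 genes. The medians of the 8 groups of members lie between -0.09 and 0.15, and the range of the ATP synthase reaches -1.16 through DMAC2L.

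The cells carried the transcripts that define keratinocytes. All 7 measured of 10 keratinocyte markers, KRT5 and KRT14 among them, lay above the median gene mean. None passed without the replicate block, while DSG3 (0.63; block adjusted p = 0.0146) and PKP1 (0.55; 0.0210) passed with it. KRT5 stood at 0.33, DSC3 at 0.17, KRT14 at 0.06, SFN at -0.14 and ITGB4 at -0.19. The sum of the log2 values of the 7, which is not a sum of transcript amounts, was 68.3 to 68.6 on the ambient arrays. It was higher, 69.4 to 70.4, on the negative pressure arrays. Of the markers of other cell types, 1 of 6 for fibroblasts, 1 of 4 for melanocytes, 1 of 4 for endothelium and 0 of 2 for immune cells lay above it. The endothelial gene CDH5 passed, at 4.81 ± 0.09 against 4.01 ± 0.21 (SD, n = 3 each; limma adjusted p = 0.0325), below the median gene mean. Sums of the endothelial log2 values were 15.1 to 16.3 on the ambient arrays against 14.9 to 15.1 on the others. The part of these markers in the result for DMAC2L was not tested. In RNA of a whole culture, fewer cells with a transcript and less of it per cell cannot be told apart.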

How the data were processed

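RNA of 6 HaCaT cultures, 3 per group, was measured on Affymetrix arrays. The authors deposited log2 values per probe set. Per the submitters' processing notes, RMA was run in Affymetrix Expression Console 1.2. RMA corrects the background, normalizes between arrays and summarises the probes of a set, and it can compress differences of weak probe sets. Scanner files were not used here, and no array batch is named in the labels.

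Groups and replicate numbers came from the sample titles. Of 54675 probe sets, 41091 name 1 gene and 1801 several in the platform annotation. For each of 19775 genes, the probe set of highest mean among those naming it alone was taken, and 15 probe sets naming a member with another gene were not used. No filter on low values was applied. Groups were compared by lmFit and eBayes, two-sided, in limma 3.58.1 (R 4.3.3), with Benjamini-Hochberg adjustment over all genes at 0.05. The procedure was tested on simulated data. Precision is limited by the 3 arrays per group.

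Deviations from the group means correlated across genes at 0.27, 0.27 and 0.53 between arrays of the same replicate number. Deviations from a group mean cancel out within the group, so an offset of the replicate 3 arrays alone can also give such correlations for the other numbers. The check therefore cannot show that cultures of the same number were paired, and no label says that they were. On this check alone, the replicate number was used as a block in an alternative fit. The main fit has no block and treats the cultures as unpaired, and the intervals come from it. With the block 408 genes were lower and 568 higher, against 62 and 120 in the main fit. Members and lists were chosen with earlier results of these data known. Genes named are those past the threshold, the highest, lowest and most intense of each complex, the isoform pairs, complex II, CYC1, CYCS, ATP5IF1 and DMAC2L; others are given as examples chosen after their values were seen. Alternatives were the replicate block, repeated quantile normalization, median centring, cyclic loess, leaving out genes of low mean, other choices of probe set, trend and robust variance, array weights, an adjusted p of 0.1 and each array left out. Leaving out both replicate 3 arrays, and testing every probe set, were added after seeing the data.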

Additional observations from a re-analysis of the deposited data

How the results depend on the processing

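DMAC2L was the 1 member called lower, and 0 were called higher, with the replicate block, all 3 normalizations, genes of low mean left out, the mean of all probe sets, trend and robust variance, array weights, an adjusted p of 0.1 and both replicate 3 arrays left out. With 1 array left out, the number called lower ran from 0 to 1 and the number higher stayed 0. The number called higher was 1, ATP5IF1, when the probe set of a gene was chosen by largest variance or by a plain _at ending, and when every probe set was tested. The median difference of the members, 0.011, moved to -0.018 with median centring, where that of all genes was 0.00, and to 0.040 with the set of largest variance. It ran from -0.00 to 0.02 with 1 array left out. COX11 turned to 0.16 (limma adjusted p = 0.884) with a plain _at ending, where a weaker probe set, of mean 3.62, stands for it. TTC19 did not pass with median centring (adjusted p = 0.0905), and the cause was not tested. It did not pass with the probe set of largest variance either (0.0719). TTC19 has 1 probe set, so its own values and its difference of -0.65 were unchanged there, and only the sets of other genes differed. The replicate block changed no call among the members or the other named genes apart from the keratinocyte markers DSG3 and PKP1. Over 18 settings the median ran from -0.05 to 0.06 in complex I, from -0.03 to 0.06 in complex IV and from -0.04 to 0.06 in the ATP synthase, so none of these has a settled sign. Weak probe sets, such as the tissue isoforms of complex IV, limit what can be seen in them.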
